A study of Mus musculus with 1 sample.

Results

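Effector and memory transcription factors are described here through 9 genes, Tbx21, Eomes, Id2, Zeb2, Prdm1, Tox, Maf, Rora and Runx2, of the 32285 genes counted in single blood T cells of a mouse with small cell lung cancer (SCLC). The members were chosen by name and not by a threshold on their values, and their UMIs were compared between T cell barcodes sorted by other genes. UMIs count the RNA molecules caught, and each barcode stands for a droplet. The mouse had the autochthonous SCLC model, in which Rb1 and Trp53 are deleted conditionally by Cre given into the airways on a C57BL/6 background, and it received vehicle, which was phosphate-buffered saline every 3 days. T cells were enriched from 150 µl of heparinized blood by lysis of red cells and negative selection, and droplet libraries for gene expression and for T cell receptors were made from the same cells. The age and sex of the mouse are not given in the sources used here, and the combination-treated mouse was not analysed here. This is 1 library of 1 mouse, so there was no replicate and no test was run. Intervals are exact 95% Poisson intervals for UMI sums, exact 95% binomial intervals for shares and exact conditional 95% intervals for ratios, all covering counting error only and treating UMIs or barcodes as independent. Where no UMI or barcode was found, the level or share that 3 counts would give is printed as the limit in place of an interval.

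T cells that have met their antigen leave the resting state under a small set of DNA-binding proteins. The T-box factors T-bet (Tbx21) and Eomesodermin (Eomes) switch on cytotoxic and memory genes, Zeb2 and Blimp-1 (Prdm1) repress the genes of less differentiated cells, and Id2 binds E proteins and so keeps them from DNA. Tox is known from T cells under lasting antigen exposure, c-Maf (Maf) and RORα (Rora) from helper and regulatory T cells, and Runx2 from memory T cells.

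Barcodes with at least 1331 UMIs were taken as cells, which gave 1600, and 1020 of them fell into 4 groups that exclude each other. The CD8 only group held 219 barcodes with a UMI of Cd8a or Cd8b1 and none of Cd4, Ly6c2, Il2rb, Gzmk, Gzma or Gzmb. The Ly6c2/Il2rb group held 392 CD8 barcodes with a UMI of Ly6c2 or Il2rb, genes of memory CD8 T cells, and no granzyme UMI. The granzyme group held 108 CD8 barcodes with a UMI of Gzmk, Gzma or Gzmb, proteases of cytotoxic granules. The Cd4 only group held 301 barcodes with Cd4 and none of the other defining genes. The 9 members had 5824 UMIs in all called barcodes and 3775 in the 4 groups.

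The groups differed in depth and RNA make-up. The median was 3620 UMIs per barcode in CD8 only, 7685 in Ly6c2/Il2rb, 5332.5 in granzyme and 3207 in Cd4 only, and a shallow barcode can miss the UMI that would have moved it out of CD8 only. Ribosomal protein genes held under 10% of the UMIs in 49.8% of the CD8 only, 22.4% of the Ly6c2/Il2rb, 9.26% of the granzyme and 42.5% of the Cd4 only barcodes. The T cell list (Cd3, T cell receptor constant, CD8 and Cd4 genes) stood at 33.6 to 57.3 UMIs per 10000 in the 4 groups. This follows in part from the rule, since the groups were sorted by the CD8 and Cd4 genes. The NK cell list (Ncr1, Klrb1c, Tyrobp, Fcer1g) stood at 0.118 to 0.882, with Ncr1 and Klrb1c at 0 in CD8 only and Cd4 only and all 4 genes found in both other groups. The neutrophil list (S100a8, S100a9, Csf3r) was at 3.53 in CD8 only, from 4 barcodes, and at 0 in granzyme. The monocyte list (Lyz2, Csf1r, Cd68, Fcgr1) was at 0.421 in granzyme, in 20 barcodes, and at 0.12 to 0.154 in the other groups, with Fcgr1 at 0 throughout. The part of these last 2 lists in the results was not tested. The B cell list reached at most 0.478 in the 4 groups against 64.3 in 84 B cell barcodes, which serve as cells that should lack most members. The 64.3 follows in part from the rule, since Cd79a and Ms4a1 are in the list. These B cell barcodes had a UMI of Cd79a or Ms4a1 and none of Cd3e, Cd3d or Cd3g. Their NK cell list stood at 1.94, above the 4 T cell groups, and 1 of them held 5 members at full depth.

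The members' order in the 4 groups is followed first by gene, with the level given as UMIs pooled over a group per 10000 UMIs. Levels are compared between groups of one gene and not between genes. Tbx21 (ENSMUSG00000001444; GRCm38.p6 chromosome 11, 97098007 to 97115331) had 1 UMI in CD8 only, a level of 0.0103 (0.00026 to 0.0571). Its level was 0.392 (0.324 to 0.469) in Ly6c2/Il2rb and 1.15 (0.906 to 1.45) in granzyme. In Cd4 only it was 0.0182 (0.0022 to 0.0656), from 2 UMIs in 1 barcode. The granzyme interval lay above the Ly6c2/Il2rb interval and both lay above CD8 only and Cd4 only, which overlapped each other. At full depth Tbx21 was found in 39.8% of the granzyme and 16.6% of the Ly6c2/Il2rb barcodes. For thinned shares each barcode was cut to 2500 UMIs and shallower barcodes were left out, which kept 1287 of the 1600. After thinning these shares were 20.4% (13.1% to 29.5%) and 5.31% (3.27% to 8.07%), against 0.562% in CD8 only and 3.23% (0.393% to 11.2%) of the 62 B cell barcodes. At the thinned depth the interval of the Ly6c2/Il2rb share overlapped that of B cell barcodes, and only the pooled level set the groups apart.

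Eomes (ENSMUSG00000032446; chromosome 9, 118478186 to 118486132) followed the same order. Its level was 0.0718 (0.0289 to 0.148) in CD8 only, 0.588 (0.505 to 0.681) in Ly6c2/Il2rb and 2.56 (2.18 to 2.98) in granzyme. In Cd4 only there was no Eomes UMI among 1100815, which allows a level of up to 0.0273. The 3 CD8 intervals did not overlap. Of the 108 granzyme barcodes 59 had an Eomes UMI and 41 had 2 or more, with at most 10 in 1 barcode, so that the level was carried by many barcodes.

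Id2 (ENSMUSG00000020644; chromosome 12, 25093799 to 25096092) was found in every group. Its level was 0.841 (0.669 to 1.04) in CD8 only and 1.21 (1.09 to 1.34) in Ly6c2/Il2rb. It was 5.15 (4.61 to 5.73) in granzyme and 0.709 (0.56 to 0.884) in Cd4 only. CD8 only and Cd4 only did not differ beyond their intervals, and the granzyme group stood clear of the rest. After thinning, 67.0% (57.0% to 75.9%) of the granzyme barcodes held an Id2 UMI, against 21.5%, 17.4% and 12.3% of Ly6c2/Il2rb, CD8 only and Cd4 only barcodes and 3.23% of B cell barcodes.

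Zeb2 (ENSMUSG00000026872; chromosome 2, 44983512 to 45117442) was concentrated in few barcodes outside the granzyme group. The CD8 only level of 0.103 (0.0492 to 0.189) came from 10 UMIs in 2 barcodes, 9 of them in 1 barcode, without which it was 0.0103. In Ly6c2/Il2rb the level was 0.206 (0.158 to 0.264) from 21 of 392 barcodes, 1 of which held 30.6% of the UMIs. In granzyme it was 2.22 (1.87 to 2.61) from 44 of 108 barcodes, and in Cd4 only 0.0273 (0.00562 to 0.0796) from 3 UMIs. The granzyme group was thus set apart, while CD8 only and Ly6c2/Il2rb overlapped. B cell barcodes also held Zeb2, at 1.58 (1.18 to 2.07), an interval that overlaps that of granzyme, so Zeb2 does not set granzyme barcodes apart from B cells.

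Prdm1 (ENSMUSG00000038151; chromosome 10, 44437174 to 44528558) had 70 UMIs in all called barcodes. No UMI was seen among 975356 in CD8 only, which allows up to 0.0308. The level was 0.0332 (0.0159 to 0.0611) in Ly6c2/Il2rb, 0.0545 (0.02 to 0.119) in Cd4 only and 0.484 (0.329 to 0.686) in granzyme. The 31 granzyme UMIs were spread over 20 of 108 barcodes, with at most 4 in 1 barcode. Only the granzyme interval stood clear of the other 3.

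Tox (ENSMUSG00000041272; chromosome 4, 6686353 to 6991557) did not follow this order. Its level was 3.39 (3.04 to 3.78) in CD8 only and 1.33 (1.20 to 1.46) in Ly6c2/Il2rb. It was 4.37 (3.87 to 4.91) in granzyme and 4.65 (4.26 to 5.07) in Cd4 only. The last 2 overlapped, the CD8 only interval lay below them and Ly6c2/Il2rb was lowest, an order that changes with the ribosomal share of the barcodes, as described further on. Tox is absent from B cell barcodes but for 1 UMI, a level of 0.0303 (0.000768 to 0.169).

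Maf (ENSMUSG00000055435; chromosome 8, 115703253 to 115706894) was nearly equal in granzyme and Cd4 only barcodes, at 0.328 (0.203 to 0.501) and 0.336 (0.237 to 0.463). In CD8 only and Ly6c2/Il2rb it rested on 2 and 6 UMIs, with levels of 0.0205 (0.00248 to 0.0741) and 0.0199 (0.00731 to 0.0434). Rora (ENSMUSG00000032238; chromosome 9, 68653404 to 69388246) had levels of 0.461 (0.337 to 0.617) in CD8 only and 0.427 (0.314 to 0.568) in Cd4 only. It was lower in Ly6c2/Il2rb at 0.163 (0.12 to 0.215) and higher in granzyme at 1.61 (1.31 to 1.95). Runx2 (ENSMUSG00000039153; chromosome 17, 44495987 to 44814797) was lowest in Cd4 only at 0.0818 (0.0374 to 0.155), followed by CD8 only at 0.256 (0.166 to 0.378), Ly6c2/Il2rb at 0.538 (0.458 to 0.628) and granzyme at 1.34 (1.07 to 1.66). The intervals of the 4 Runx2 levels did not overlap.

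**Figure D1:**
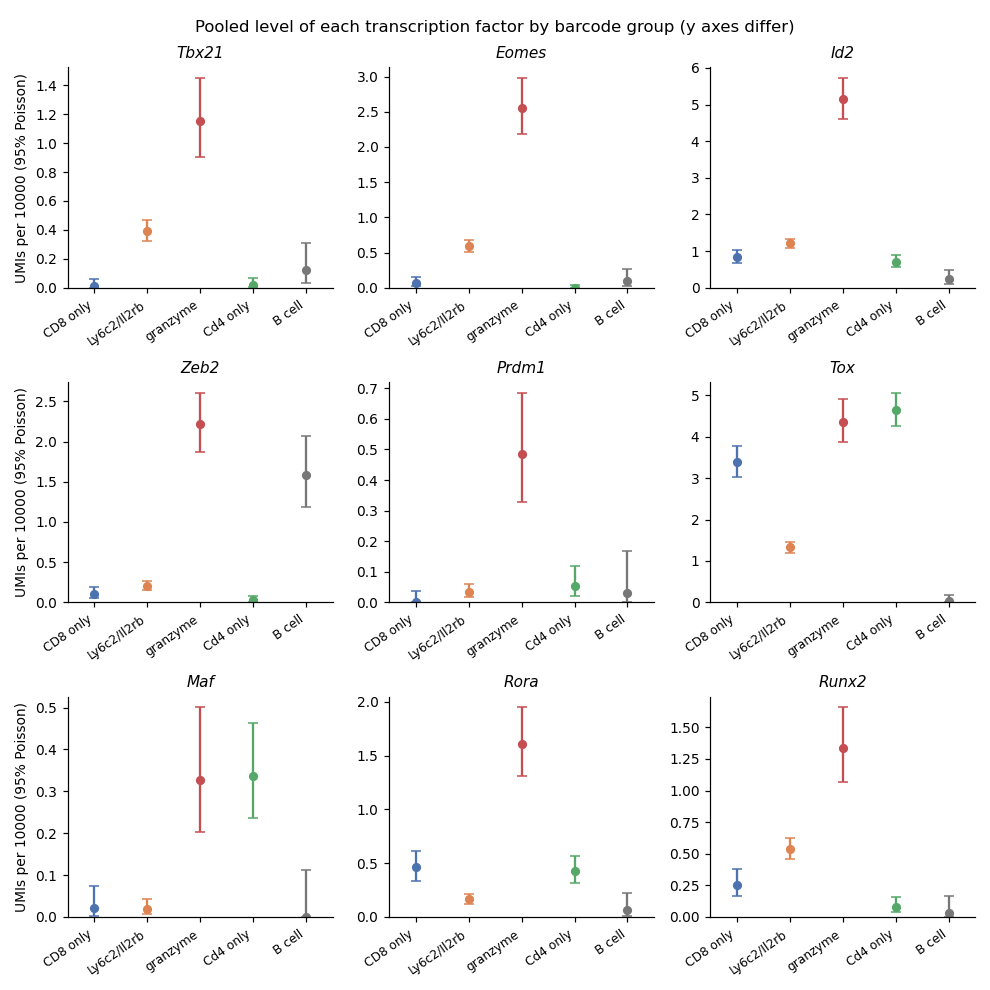
Level of each of the 9 transcription factors, as UMIs per 10000 pooled UMIs (y axis, a scale of its own per gene), in the 4 T cell groups and in B cell barcodes, with exact 95% Poisson intervals. Tbx21, Eomes, Id2, Zeb2, Prdm1, Rora and Runx2 were highest in the granzyme group, while Tox and Maf had overlapping intervals in granzyme and Cd4 only. In barcodes at a ribosomal share of 10% or more, Tox was at 3.97 in granzyme and 1.89 in Cd4 only.

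The promoters that hold a motif of one of the members' own DNA-binding families are shown because several members were high together in the granzyme group. RefSeq start sites on GRCm38.p6 were matched for 7 of the 9 genes, which have 10 promoters, and the 250 bases before each start were searched on both strands. The letters searched were GGTGTGA for T-box factors, TGTGGT for RUNX factors and CAGGTG for the E-box that ZEB and E proteins bind, and each promoter printed here holds 1 match, so that none overlap. The T-box letters were in 0 of the 10 promoters and in 3.33% of 32851 promoters of all genes. The RUNX letters were in that of Runx2 itself and in 14.0% of all, and the E-box letters in those of Tbx21 and Prdm1 and in 17.2% of all. A match is a description of these letters only. The 3 windows follow, 5′ to 3′ on the strand of the gene, with the motif in capitals, which begins at position -196 from the start site of Tbx21, -87 from a start site inside the Prdm1 gene and -80 from that of Runx2, where it is read on the other strand.
Tbx21, chr11:97115332-97115581, minus strand: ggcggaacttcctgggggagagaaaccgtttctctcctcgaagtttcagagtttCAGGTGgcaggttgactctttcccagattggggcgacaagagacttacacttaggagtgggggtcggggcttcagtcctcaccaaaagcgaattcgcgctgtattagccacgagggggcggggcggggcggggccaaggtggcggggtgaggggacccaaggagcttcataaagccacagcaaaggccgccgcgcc
Prdm1, chr10:44458749-44458998, minus strand: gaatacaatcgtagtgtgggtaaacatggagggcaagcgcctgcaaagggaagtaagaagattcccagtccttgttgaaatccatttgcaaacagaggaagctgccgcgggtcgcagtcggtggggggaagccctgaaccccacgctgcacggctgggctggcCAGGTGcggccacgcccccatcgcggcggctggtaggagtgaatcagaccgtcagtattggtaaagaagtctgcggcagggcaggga
Runx2, chr17:44814628-44814877, minus strand: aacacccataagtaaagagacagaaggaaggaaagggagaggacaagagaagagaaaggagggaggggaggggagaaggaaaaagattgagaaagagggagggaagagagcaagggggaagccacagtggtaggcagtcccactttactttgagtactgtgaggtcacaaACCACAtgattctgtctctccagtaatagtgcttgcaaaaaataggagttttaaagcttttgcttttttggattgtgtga

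The first comparison asked which factors set the Ly6c2/Il2rb barcodes apart from CD8 only. Genes with at least 20 UMIs in both groups together were compared, 9358 of them, and a gene was counted when the pooled levels were at least 2-fold apart. The median log2 ratio of these genes was -0.20. Of the 9 members 7 reached 20 UMIs, and 4 were at least 2-fold higher, against 3.57% of all genes, while 2 were at least 2-fold lower, against 6.61%. Tbx21, Eomes and Zeb2, with 1, 7 and 10 UMIs in CD8 only, passed the filter only through the Ly6c2/Il2rb barcodes, so the count is a description. Ly6c2/Il2rb held 3010383 UMIs in all against 975356 in CD8 only, which by itself brings more genes past the filter through that group. Tbx21 was 38.2-fold (6.73 to 1523) and Eomes 8.19-fold (3.89 to 20.7) higher. Runx2 was 2.1-fold (1.37 to 3.34) and Zeb2 2.01-fold (1.02 to 4.39) higher, and the intervals of the Zeb2 levels overlapped. Without the 28 Ly6c2/Il2rb and 7 CD8 only barcodes that held an NK cell marker UMI, Zeb2 was at 0.096 in Ly6c2/Il2rb and 0.106 in CD8 only, which turned the direction to 0.904-fold. The CD8 only level rests on 1 barcode, however, and without the top barcode of each group Zeb2 was 13.9-fold higher in Ly6c2/Il2rb, so that its direction here hangs on few barcodes. Id2 was 1.44-fold (1.13 to 1.85) higher. Tox, at 0.391-fold (0.337 to 0.453), and Rora, at 0.353-fold (0.231 to 0.541), were the members that were lower in the memory-type barcodes. Prdm1 and Maf were not compared, with 10 and 8 UMIs in both groups together.

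The granzyme barcodes were compared with CD8 only in the same way. All 9 members reached 20 UMIs and 8 were at least 2-fold higher, against 9.2% of 7906 genes, and 0 were at least 2-fold lower, against 14.6%. Tbx21, Eomes, Zeb2, Prdm1 and Maf had fewer than 20 UMIs in CD8 only and so passed through the granzyme group alone, and the count is a description of it. Tbx21 was 113-fold (19.6 to 4506) higher, an interval that is wide because of the 1 UMI in CD8 only. Eomes was 35.6-fold (16.9 to 90.1) and Zeb2 21.6-fold (11.4 to 46.0) higher. Prdm1 was at least 15.7-fold higher, taken against 3 counts over the CD8 only group, and Maf 16.0-fold (3.9 to 141) higher. Id2, which was well covered in both groups, was 6.12-fold (4.79 to 7.9) higher, Runx2 5.23-fold (3.32 to 8.53) and Rora 3.48-fold (2.43 to 5.06). Tox was the exception at 1.29-fold (1.09 to 1.51).

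Between the 2 antigen-experienced groups every member was higher in granzyme. All 9 members were at least 2-fold higher in granzyme than in Ly6c2/Il2rb, against 7.52% of 9207 genes, and 0 at least 2-fold lower, against 7.74%, and the median log2 ratio of all genes was 0.12. Only Maf and Prdm1 had fewer than 20 UMIs in the Ly6c2/Il2rb group. The folds ran from 2.49 (1.9 to 3.26) for Runx2 and 2.94 (2.17 to 3.97) for Tbx21 to 16.4 (6.42 to 49.8) for Maf. Zeb2 at 10.8-fold (7.93 to 14.7) and Rora at 9.87-fold (6.96 to 14.2) exceeded the T-box factors, with Eomes at 4.35-fold (3.5 to 5.41), and their intervals did not overlap that of Eomes. When no CD8 UMI was required, Rora fell to 4.27-fold and Maf to 2.87-fold, with Ly6c2/Il2rb levels of 0.36 and 0.187. The order of Rora and Eomes therefore hangs on that choice. Tox was 3.3-fold (2.82 to 3.85) and Id2 4.26-fold (3.66 to 4.95) higher. Without barcodes with an NK cell marker UMI, 14 of them in granzyme, the granzyme levels were 1.05 for Tbx21, 1.88 for Zeb2, 2.79 for Eomes and 4.89 for Id2, each inside the interval of the full group.

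Cd4 only barcodes differed little from CD8 only. Of the 5 members with at least 20 UMIs, 1 was at least 2-fold higher, against 4.71% of 8433 genes, and 1 at least 2-fold lower, against 3.12%. Maf, with 2 UMIs in CD8 only, and Runx2, with 9 in Cd4 only, each passed the filter only through the group where they were higher, so these counts are descriptions too. Maf was 16.4-fold (4.23 to 140) higher and Runx2 0.319-fold (0.131 to 0.706), that is lower, in Cd4 only. Tox was 1.37-fold (1.19 to 1.58) higher, and Id2 at 0.843-fold (0.61 to 1.16) and Rora at 0.925-fold (0.602 to 1.42) did not differ beyond counting error. Tbx21, Eomes, Zeb2 and Prdm1 stayed under 20 UMIs. Because barcodes with Ly6c2, Il2rb or granzyme UMIs are left out of Cd4 only, this group holds few cells of the kind in which these genes were found, and the Cd4 barcodes set aside, 57 with Ly6c2 or Il2rb and 11 with a granzyme UMI, enter the split by S100a4 further on.

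Other genes of the same programme were read from 4 lists chosen with earlier results of these data known. Their counts stand beside the shares of all genes past 2-fold given for each comparison, which for granzyme over CD8 only were 9.2% higher and 14.6% lower. Of 11 factors of naive T cells, 10 were at least 2-fold lower in granzyme than in CD8 only, with a median log2 of -1.95 against -0.06 over all genes. Satb1 was lowest at 0.132-fold, and Klf2 was the gene that was not lower, at 1.38-fold. Id3, with 3 UMIs in granzyme and 22 in CD8 only, passed the filter only through CD8 only. Bcl6 and Myb had fewer than 20 UMIs in each group. In Ly6c2/Il2rb 2 of the 11 were lower, Bach2 and Zeb1, and in Cd4 only 1 was higher, Myb, with 38 UMIs against 16. Against Ly6c2/Il2rb the granzyme group had 5 lower, of which Id3 again had 3 UMIs in granzyme. A ribosomal share under 10% was found in 49.8% of the CD8 only and 9.26% of the granzyme barcodes. Among barcodes at 10% or more, 5.0% of all genes were at least 2-fold lower in granzyme than in CD8 only. The list counts were not computed within those barcodes, and the part of this share in them was not tested. Of 26 genes that effector and memory factors are known to act on or that mark such cells, 25 were covered in granzyme against CD8 only. There 18 were at least 2-fold higher and 2 lower, with a median log2 of 3.66. Most of the 18 had fewer than 20 UMIs in CD8 only, with Ifng, Klrg1, Klre1 and Fasl at 0. These passed the filter only through granzyme, so the count is a description. Ccl5, a chemokine of cytotoxic cells, was 846-fold higher, and Ccr7, the lymph node homing receptor, 0.166-fold. In Ly6c2/Il2rb 13 of 23 were higher and 1 lower, and in granzyme against Ly6c2/Il2rb 17 of 26 were higher and 3 lower. Most of the 13, such as Klre1, Xcl1 and Fasl with 0 UMIs in CD8 only, likewise passed only through Ly6c2/Il2rb. Of the 17, Ifng, Cx3cr1, Klrg1 and Ccl4 passed only through granzyme, and the lower gene Xcl1 only through Ly6c2/Il2rb. In Cd4 only 3 of 15 were higher, with S100a4 the highest at 4.87-fold, and 2 lower. Cxcr3 and S100a4 had 4 and 10 UMIs in CD8 only, and the lower genes Klrd1 and Nkg7 had 13 and 10 in Cd4 only.

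Partner factors are a list of 23 genes that includes other Runx, Stat, Klf, Nfat and E protein genes. In granzyme against CD8 only 1 of 18 was at least 2-fold higher and 4 lower, against 9.2% and 14.6% of all genes, and no difference of the list from all genes is read from this. The higher gene was Bhlhe40, a stress-responsive repressor, with 54 UMIs against 1 and a level of 0.842 against 0.0103. Runx3, the relative of Runx2 that is needed for the CD8 lineage, was at 2.23 in granzyme and 2.33 in CD8 only, and at 0.5 in Cd4 only. Thus Runx2 differed between granzyme and CD8 only where Runx3 was 0.958-fold, while Runx3 differed between Cd4 only and CD8 only at 0.215-fold. In Ly6c2/Il2rb Runx3 was at 1.78 (1.63 to 1.93), 0.764-fold of CD8 only, and the intervals of these levels did not overlap. Against Ly6c2/Il2rb the granzyme group had 1 of 18 higher and 2 lower, in Ly6c2/Il2rb against CD8 only 0 of 17 were higher and 2 lower, and in Cd4 only 1 of 17 was higher, Runx1, and 1 lower. Of 10 relatives of the members, such as Tox4, Mafg and Id1, at most 3 had 20 UMIs in any comparison. Mafg in Ly6c2/Il2rb was the 1 gene past 2-fold, with 27 UMIs against 4 in CD8 only.

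Tox, Rora, Runx2 and Zeb2 moved with the ribosomal share of the barcode. These are also the longest genes of the set, at 305, 735, 319 and 134 kb, whereas Prdm1 is 91.4, Tbx21 17.3, Eomes 7.95, Maf 3.64 and Id2 2.29 kb long. In CD8 only the Tox level was 7.65 (6.74 to 8.64) in the 109 barcodes with a ribosomal share under 10% and 1.17 (0.921 to 1.47) in the other 110, a 6.53-fold (5.03 to 8.56) difference. Of the 4 members covered there, Tox, Rora and Runx2, the last 2 with 17 and 6 UMIs in the other 110, were at least 2-fold higher, against 42.4% of 6407 genes, and 0 lower, against 15.9%. In Ly6c2/Il2rb 4 of 7 members were higher, against 42.9%, and 0 lower, against 12.9%. Runx2 was 6.94-fold (5.04 to 9.56) and Zeb2 6.01-fold (3.51 to 10.2) higher in the barcodes under 10%, but 1 barcode held 19 of the 28 Zeb2 UMIs. Tbx21 at 1.23-fold (0.688 to 2.06), Eomes at 1.43-fold (0.925 to 2.14) and Id2 at 0.875-fold (0.611 to 1.22) did not differ beyond counting error. In granzyme, with 10 barcodes under 10%, 5 of 9 were higher, against 31.7%, and 0 lower, against 12.4%. Beside the 4 long genes these included Maf, one of the shortest, at 4.78-fold (1.37 to 13.6) from 5 UMIs against 16, with overlapping intervals of the levels. In Cd4 only 2 of 4 were higher, against 33.9%, and 0 lower, against 15.6%.

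The same gradient ran over all genes. In Ly6c2/Il2rb the median fold of the barcodes under 10% over the rest was 0.484 for 854 genes under 5 kb and 5.27 for 142 genes of 300 kb and over, and in granzyme it went from 0.74 to 3.47. The values of the long members therefore carry the mix of barcodes in their group, and what this share reflects was not tested.

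**Figure D2:**
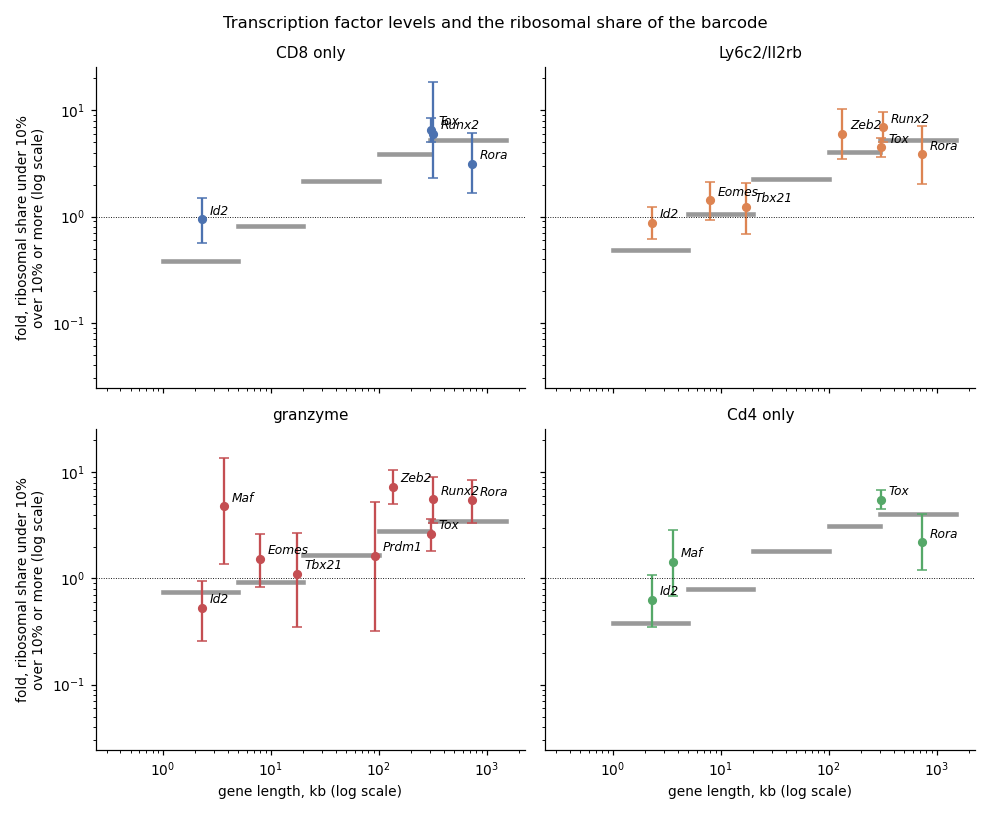
Fold of each member's level in barcodes with a ribosomal share under 10% over those at 10% or more (y axis, log scale), with exact 95% intervals, against gene length in kb (x axis, log scale), 1 panel per group, for members with at least 20 UMIs. Grey bars are medians over all covered genes in 5 length classes, and in Ly6c2/Il2rb they climb from 0.484 to 5.27 while Id2 sits at 0.875 and Runx2 at 6.94.

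Within barcodes at 10% or more the comparison with CD8 only changed for Tox. Its level was 1.17 in CD8 only, 0.933 (0.82 to 1.06) in Ly6c2/Il2rb and 3.97 in granzyme, so that granzyme was 3.39-fold and Ly6c2/Il2rb 0.797-fold of CD8 only. In Cd4 only it was 1.89 (1.59 to 2.23), below the granzyme interval of 3.48 to 4.51, so that in these barcodes Tox too was highest in granzyme. All 8 members covered there were then at least 2-fold higher in granzyme, against 11.4% of 6803 genes, and 0 lower, against 5.0%, but of the 8 only Id2 and Tox had 20 UMIs or more in CD8 only itself. In Ly6c2/Il2rb 4 of 7 were higher, against 5.2%, all 4 with 0 to 6 UMIs in CD8 only and so covered only through Ly6c2/Il2rb, and Rora alone stayed at least 2-fold lower, against 2.83%, at 0.455-fold (0.245 to 0.874) with overlapping intervals of the levels. In Cd4 only Maf was still higher, against 6.7%, with 22 UMIs against 1, and 0 members were lower, against 2.31%. Against Ly6c2/Il2rb all 9 members were again at least 2-fold higher in granzyme, against 9.0%, and 0 lower, against 6.25%, with Prdm1 and Maf at 9 and 5 UMIs in Ly6c2/Il2rb.

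The granzyme group itself was not uniform. A UMI of Cx3cr1, the fractalkine receptor of circulating effector cells, was present in 57 of its barcodes and absent from 51. Zeb2 was at 4.39 (3.67 to 5.2) with Cx3cr1 and 0.294 (0.141 to 0.54) without, a 14.9-fold (7.87 to 31.9) difference, and it was found in 35 of 57 against 9 of 51 barcodes. Tbx21 was at 1.86 (1.41 to 2.42) and 0.529 (0.313 to 0.836), a 3.52-fold (2.04 to 6.36) difference. Zeb2 and Tbx21 were the 2 members at least 2-fold higher with Cx3cr1, against 6.61% of 4916 genes, and 0 were lower, against 2.16%. With 10 and 18 UMIs in the barcodes without Cx3cr1, both passed the filter only through those with it. Id2 was 1.54-fold (1.23 to 1.92) higher. Eomes was level at 2.59 and 2.53, a ratio of 1.03 (0.745 to 1.41), and Tox at 4.16 and 4.55, a ratio of 0.912 (0.715 to 1.16). Prdm1, Maf, Rora and Runx2 did not differ beyond counting error. The T-box factors thus parted in these barcodes, Tbx21 moving with Zeb2 and Cx3cr1 and Eomes not. Within barcodes at a ribosomal share of 10% or more the ratios were 11.6 (5.83 to 26.2) for Zeb2 and 3.97 (2.24 to 7.44) for Tbx21. With Prdm1 at 2.16-fold (0.945 to 5.23), 3 of 8 members were at least 2-fold higher there, against 5.47%, and 0 lower, against 2.4%, and all 3 again had fewer than 20 UMIs without Cx3cr1.

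The granzyme genes divided the same barcodes differently. Gzmk without Gzma or Gzmb was found in 40 barcodes, Gzma or Gzmb without Gzmk in 27 and both in 41. Tox was at 6.01 (5.01 to 7.14) with Gzmk alone, 5.12 (4.28 to 6.08) with both and 1.17 (0.716 to 1.81) with Gzma or Gzmb alone, so that the first was 5.12-fold (3.18 to 8.66) above the last. Eomes was at 3.21 (2.5 to 4.07), 2.93 (2.31 to 3.68) and 1.17 (0.716 to 1.81), a 2.74-fold (1.65 to 4.76) difference, and 1 barcode held 10 of the 20 UMIs in the last class. Tox and Eomes therefore went with Gzmk whether or not Gzma or Gzmb was present. Zeb2 ran the other way, at 1.4 (0.942 to 1.99), 2.19 (1.65 to 2.84) and 3.28 (2.48 to 4.26), and Gzmk alone was 0.425-fold (0.264 to 0.674) of Gzma or Gzmb alone, although 1 barcode held 15 of its 30 UMIs. Tbx21 was at 0.652 (0.356 to 1.09) with Gzmk alone and 1.41 in both other classes, and its intervals overlapped. Maf had 9 UMIs in 40 barcodes, 12 in 41 and 0 in 27, where a level of up to 0.176 is allowed. Of the 7 members with 20 UMIs in the outer classes, 2 were at least 2-fold higher with Gzmk alone, against 4.38% of 3216 genes, and 2 at least 2-fold lower, against 4.23%, of which Tbx21, with 14 UMIs in Gzmk alone, passed the filter only through the other class. Within barcodes at a ribosomal share of 10% or more Tox was 3.82-fold (2.34 to 6.53) and Eomes 2.39-fold (1.42 to 4.18) higher, again 2 of 7 against 4.38%, and Zeb2 was the 1 member at least 2-fold lower, at 0.259-fold (0.135 to 0.473), against 5.11%.

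**Figure D3:**
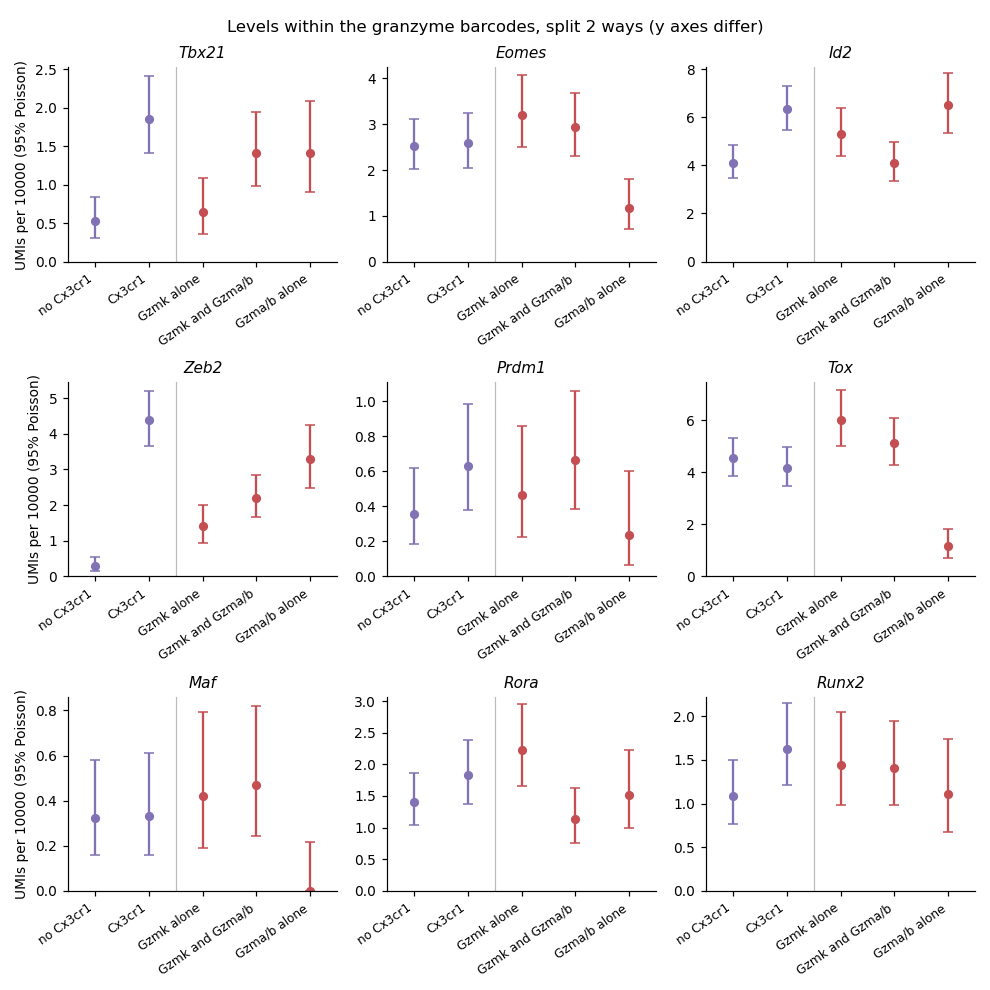
Level of each member as UMIs per 10000 (y axis, a scale of its own per gene) with exact 95% Poisson intervals within the 108 granzyme barcodes, split by a Cx3cr1 UMI (left of the line) and by which granzyme genes were found (right of it). Zeb2 stood at 4.39 with Cx3cr1 and 0.294 without, and Tox at 6.01 with Gzmk alone and 1.17 with Gzma or Gzmb alone.

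The Ly6c2/Il2rb group was split by its own defining genes. Barcodes with both genes numbered 216, with Ly6c2 alone 73 and with Il2rb alone 103, at median depths of 9314.5, 5410 and 5187 UMIs. Against Ly6c2 alone, Runx2 was 4.51-fold (2.01 to 12.5), Tbx21 3.94-fold (1.75 to 11.0), Eomes 2.96-fold (1.64 to 5.86) and Id2 2.12-fold (1.46 to 3.18) higher where both genes were found. With Zeb2, at 2.82-fold (0.888 to 14.3), 5 of 7 covered members were at least 2-fold higher, against 6.63% of 8324 genes, and 0 lower, against 2.49%. Of the 5, Tbx21, Eomes, Zeb2 and Runx2 had 3 to 12 UMIs with Ly6c2 alone and passed the filter only through the barcodes with both. Tox, at 0.879-fold (0.646 to 1.22), and Rora, at 0.966-fold (0.385 to 2.89), did not differ beyond counting error. Against Il2rb alone, Tbx21 was 2.11-fold (1.2 to 3.99) and Eomes 2.46-fold (1.5 to 4.26) higher with both genes. With 14 and 18 UMIs in Il2rb alone, Tbx21 and Eomes passed the filter only through the barcodes with both genes. The share of all genes past 2-fold was not computed for this comparison. Id2 was 1.34-fold (1.01 to 1.8), with overlapping intervals of the levels, and Runx2 0.765-fold (0.536 to 1.11). Zeb2 at 0.439-fold (0.254 to 0.771), Tox at 0.379-fold (0.305 to 0.472) and Rora at 0.38-fold (0.199 to 0.733) were lower. Zeb2 had 24 UMIs with Il2rb alone. At a ribosomal share of 10% or more the group had 34 Zeb2 UMIs, 30 with both genes and 3 with Ly6c2 alone. Nearly all of the 24 thus lay in barcodes under 10%, where a single barcode held most of the group's Zeb2 UMIs. The direction for Zeb2 against Il2rb alone therefore hangs on few barcodes. A ribosomal share under 10% was found in 13.9% of the barcodes with both genes, 15.1% with Ly6c2 alone and 45.6% with Il2rb alone. Deeper barcodes are more likely to hold both defining genes. Among barcodes at a ribosomal share of 10% or more, the ratios of both genes over Ly6c2 alone were 4.56 for Runx2 and 3.61 for Tbx21. They were 2.88 for Eomes, 2.43 for Zeb2 and 2.0 for Id2, and of these only Id2 had 20 UMIs with Ly6c2 alone. Whether depth or the ribosomal share plays a part in the pooled levels of this split was not tested.

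The Cd4 barcodes were widened to all 369 without a CD8 UMI, with or without Ly6c2, Il2rb or granzyme UMIs, and split by S100a4, a gene of antigen-experienced T cells, and Foxp3, the factor of regulatory T cells. The widening to all 369 was chosen after values had been seen. In the 43 barcodes with S100a4 and no Foxp3 UMI, Tbx21 was at 1.29 (0.879 to 1.84), against 0.0786 (0.0359 to 0.149) in the 311 with neither, a 16.5-fold (7.65 to 39.3) difference. Id2 was at 5.64 against 0.751, 7.5-fold (5.68 to 9.95), and Runx2 at 1.17 against 0.105, 11.2-fold (5.49 to 24.1). Rora was at 2.59 against 0.41, 6.31-fold (4.25 to 9.42), and Maf at 1.63 against 0.384, 4.24-fold (2.68 to 6.67). Tbx21 and Runx2, with 9 and 12 UMIs in barcodes with neither gene, passed the filter only through those with S100a4. Of the 43, 14 had no Ly6c2, Il2rb or granzyme UMI. These 14 held 2 of the 31 Tbx21 UMIs, both in 1 barcode, a level of 0.34 (0.0412 to 1.23), and no Eomes UMI. The Tbx21 UMIs of the 43 thus lay mostly in barcodes with those other genes. The Id2, Tbx21 and Runx2 levels of all 43 barcodes were near those of the CD8 granzyme group, at 5.15, 1.15 and 1.34, and their intervals overlapped. Eomes was at 0.376 (0.172 to 0.713) from 9 UMIs in 4 barcodes, below the 2.56 of granzyme. With 18 UMIs together it was not compared with barcodes of neither gene, nor was Prdm1, with 7 UMIs in each. Zeb2 was at 0.668 (0.382 to 1.08) from 3 barcodes, 4.5-fold (2.13 to 9.47) above those with neither and below the 2.22 of granzyme. It had 16 UMIs with S100a4 and 17 with neither. Tox was slightly lower than in barcodes with neither gene, 3.51 against 4.78, a ratio of 0.734 (0.576 to 0.925). Median depths were 4900 UMIs with S100a4 and 3194 with neither. A ribosomal share under 10% was found in 9.3% of the S100a4 barcodes and 43.7% of those with neither. The part of depth and of this share in these ratios was not tested, and the share of all genes past 2-fold was not computed here.

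The 15 Foxp3 barcodes had few UMIs of most members. Rora was at 1.54 (0.793 to 2.68), 3.74-fold (1.81 to 7.16) above barcodes with neither gene, from 12 UMIs in 3 barcodes. Maf was at 0.896 (0.36 to 1.85) from 7 UMIs in 3 barcodes, and its interval overlapped that of the rest. Tox was lower, at 2.82 (1.76 to 4.26) and 0.589-fold (0.366 to 0.902).

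**Figure D4:**
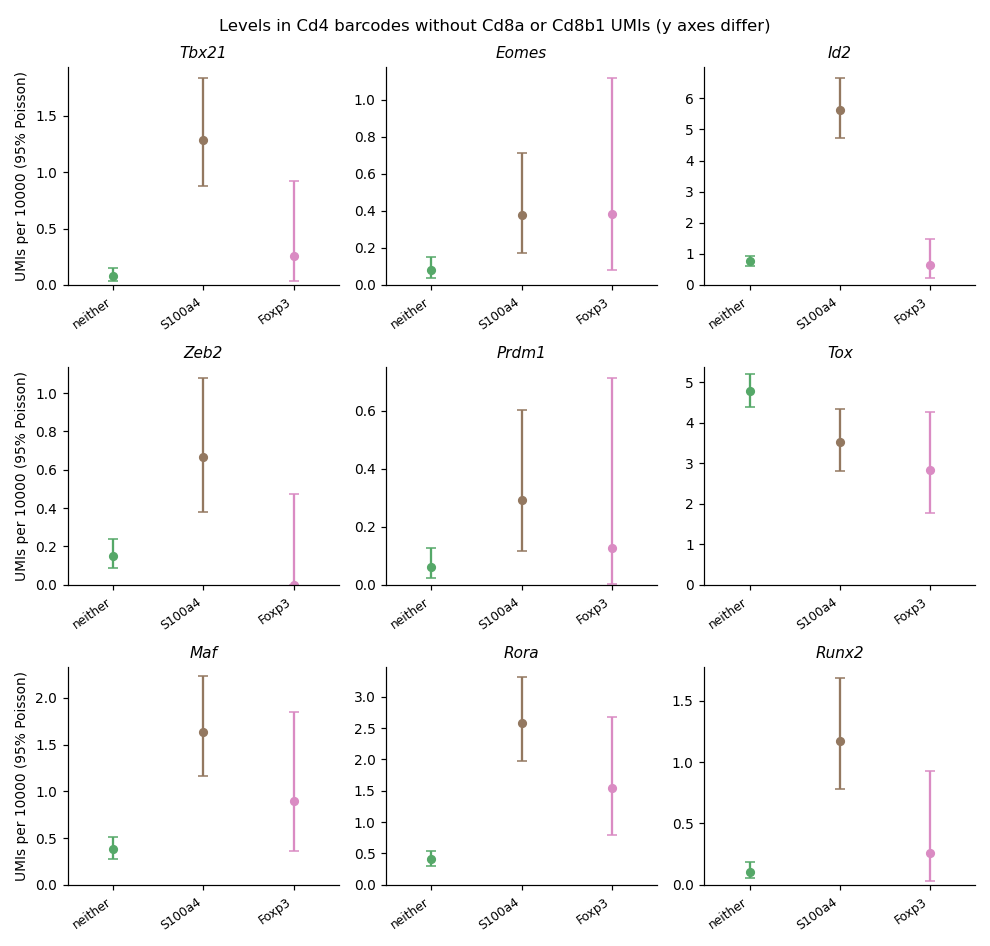
Level of each member as UMIs per 10000 (y axis, a scale of its own per gene) with exact 95% Poisson intervals in the 369 Cd4 barcodes without a CD8 UMI, split into 311 with neither S100a4 nor Foxp3, 43 with S100a4 alone and 15 with Foxp3. Tbx21, Id2, Zeb2, Maf, Rora and Runx2 were higher with S100a4 than with neither, Zeb2 from 3 barcodes, and Tox was lower. Eomes, from 4 barcodes with S100a4, and Prdm1 had fewer than 20 UMIs together and were not compared.

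Members were also read together in single barcodes. With barcodes thinned to 2500 UMIs and shallower ones left out, 4 or more of the 9 members were found in 37.9% (28.5% to 48.0%) of 103 granzyme barcodes. The share was 1.33% (0.432% to 3.07%) of 377 Ly6c2/Il2rb, 1.12% (0.136% to 4.0%) of 178 CD8 only and 0.909% (0.11% to 3.25%) of 220 Cd4 only barcodes, and 0 of 62 B cell barcodes, which allows up to 4.84%. The median was 3 members in granzyme and 1 in each other T cell group. At full depth the shares were 63.0%, 11.0%, 1.37% and 0.997%, so that the distance of Ly6c2/Il2rb from CD8 only was seen only at its greater depth. When Tox was left out, 10.7% of the thinned granzyme barcodes held none of the other 8, against 61.3% to 77.3% in the other 3 groups.

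**Figure D5:**
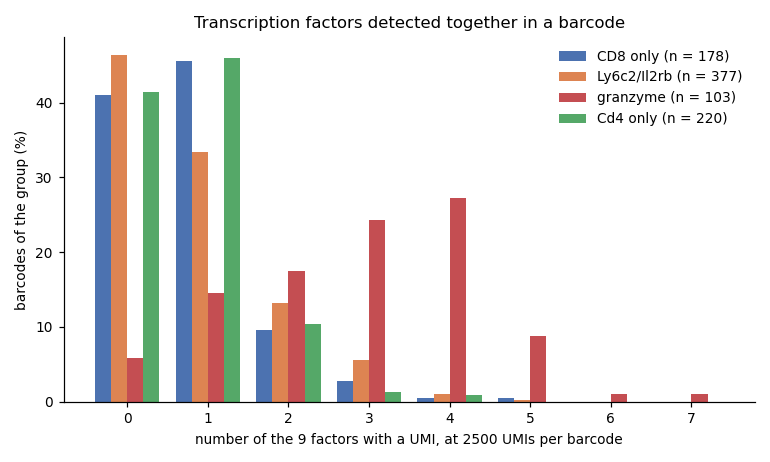
Share of barcodes in % (y axis) with a UMI of 0 to 7 of the 9 transcription factors (x axis) after thinning to 2500 UMIs, for the 4 T cell groups. Barcodes under 2500 UMIs were left out. Granzyme barcodes centre on 3 and 4 members, and the other groups on 0 and 1.

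Within granzyme barcodes some pairs were found together more often than others. Zeb2 was found in 60.5% (44.4% to 75.0%) of the 43 barcodes with Tbx21 and 27.7% (17.3% to 40.2%) of the 65 without, and after thinning in 66.7% and 20.7%. Tox was found in 88.1% (77.1% to 95.1%) of the 59 barcodes with Eomes and 51.0% (36.3% to 65.6%) of the 49 without. With Maf it was found in 16 of 16 barcodes, and without Maf in 61 of 92. After thinning these counts were 7 of 7 and 50 of 96, with overlapping intervals of the shares. In contrast, Tbx21 was found in 33.9% (22.1% to 47.4%) of the barcodes with Eomes and 46.9% (32.5% to 61.7%) of those without. After thinning these shares were 10.5% and 26.2%, with overlapping intervals, so the T-box factors were not found together more often in granzyme barcodes. In Ly6c2/Il2rb they were, with Tbx21 in 31.2% (22.7% to 40.8%) of 109 barcodes with Eomes and 11.0% (7.57% to 15.2%) of 283 without, and in 17.1% and 3.87% after thinning. Whether the larger depth of some barcodes adds to the shares at full depth was not tested.

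The 2 largest T cell clones held different members. A clone is a set of barcodes with the same receptor in the authors' contig table, and the β-chain CDR3 that names each is shown 5′ to 3′, with its first codon for cysteine and its last for phenylalanine in capitals. It is a rearranged sequence from the files and has no position of its own in the genome.
TRBV12-2 with TRBJ1-6, 9 barcodes: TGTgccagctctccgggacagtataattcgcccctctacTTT
TRBV1 with TRBJ1-4, 8 barcodes: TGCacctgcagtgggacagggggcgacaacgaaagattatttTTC
In the TRBV12-2 clone, with 6 granzyme and 3 Ly6c2/Il2rb barcodes, no UMI of Eomes, Prdm1, Tox or Maf was seen among 45251, which allows up to 0.663 for each. Id2 was at 10.4 (7.63 to 13.8) in 8 of 9 barcodes, Rora at 3.31 (1.86 to 5.47) in 5, Zeb2 at 2.87 (1.53 to 4.91) in 4 and Tbx21 at 1.33 (0.487 to 2.89) in 5. One barcode held 9 of the 13 Zeb2 UMIs. The TRBV1 clone, all 8 barcodes of which were in the granzyme group and held Gzmk, showed the reverse for Eomes and Zeb2. Eomes was at 2.49 (1.24 to 4.46) in 6 barcodes, Tox at 6.12 (4.03 to 8.9) in 7 and Maf at 1.13 (0.368 to 2.64) in 4. Zeb2 had no UMI among 44131, which allows up to 0.68, and Id2 was at 0.906 (0.247 to 2.32). The Id2, Eomes, Tox and Zeb2 intervals of the clones did not overlap, and those of Tbx21, Rora, Prdm1, Maf and Runx2 did. The TRBV15 clone of 5 barcodes, 4 of them with Gzmk, also held Eomes at 3.57 (1.71 to 6.57) and no Zeb2 UMI, which allows up to 1.07. A TRBV16 clone of 4 barcodes held both, Eomes at 2.1 (0.682 to 4.9) and Zeb2 at 0.84 (0.102 to 3.03), each in 2 barcodes. A clone of 4 with TRBV12-2 and TRBJ2-7 held Eomes at 2.34 (0.637 to 5.99) and no Zeb2 UMI, which allows up to 1.75. Barcodes of 1 clone share their origin and are not replicates.

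Clone size by itself did not part the members within the granzyme group. In the 44 barcodes of clones with 2 or more cells and the 53 of clones with 1 cell, Tbx21 was at 1.22 and 1.07, Eomes at 2.96 and 2.23, Zeb2 at 1.92 and 1.88 and Tox at 4.31 and 3.67. Id2 was at 4.58 (3.74 to 5.54) and 5.5 (4.77 to 6.31), Runx2 at 1.22 and 1.23 and Rora at 1.74 and 1.39. The intervals overlapped for all 9 members.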

How the data were processed

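Droplet libraries from blood T cells of 1 vehicle-treated mouse were analysed. The authors deposited unnormalized UMI counts per gene and barcode, made with Cell Ranger (version 4 by the file header) on GRCm38, and a contig table of T cell receptors. The matrix held 12855001 UMIs over 32285 genes and 300213 barcodes, and the counting's use of strand is not given in the sources used here. For 7 of the 9 members an overlapping gene on the other strand is also in the files, and for none a gene on the same strand.

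Barcodes were called cells at 1331 UMIs or more, which is the 99th percentile of the 3000 deepest barcodes divided by 10. UMIs were summed per group and given per 10000, with 20 UMIs in both groups together as the minimum for a comparison and 3 counts as the limit where none was seen. T cell receptor genes and genes of the group rule were left out of the comparison over all genes. Shares were also computed after thinning to 2500 UMIs, with shallower barcodes left out. Gene coordinates and promoters came from RefSeq GRCm38.p6. Python 3.11.15, numpy 2.4.6, pandas 2.3.3, scipy 1.17.1, matplotlib 3.10.9 and scanpy 1.11.5 were used, and the ratio code was tested on simulated data. Scrublet marked 10 of 1600 barcodes as doublets, which were kept except in 1 alternative.

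All 9 members were named, with the list genes of largest fold and, per member, the 3 genes with the nearest pattern over the 4 groups. List genes named beside these (Klf2, Bach2, Zeb1, Myb, Ccr7, Runx1, Runx3, Mafg) were picked after their values were seen. The members and lists were chosen with earlier results of these data known. Alternatives were the UMI limit, thinning, the UMIs and the CD8 UMI a group requires, Cd4 whatever the other genes, a T cell receptor contig, ribosomal share, a mean over barcodes, free RNA and doublets. Leaving out barcodes with NK cell markers, centring on the median gene and leaving out each member's top barcode were chosen after seeing the data.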

Additional observations from a re-analysis of the deposited data

Results flagged for a closer look

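Barcodes of 200 to 1330 UMIs, below the limit for a cell, were not used in the comparisons. The 1908 of them held 721538 UMIs, among which 3 counts correspond to a level of 0.0416 per 10000. The Zeb2 level was 1.22 (0.978 to 1.5) and the Tox level 0.887 (0.683 to 1.13). Id2 was at 0.208, Rora at 0.139, Eomes at 0.097 and Runx2 at 0.0693, each above the limit of 3 counts. Tbx21 had no UMI, and Prdm1 and Maf had 1 and 2. These 6 members were listed for a closer look because they appear in barcodes outside the comparisons. Zeb2 was the only one of them whose level there exceeded those in CD8 only, Ly6c2/Il2rb and Cd4 only.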

How the results depend on the processing

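There was 1 library, so no replicate could be left out, and no value was tested. No paired analysis was possible because the study part analysed has 1 sample. Members' log2 ratios were recomputed under 14 alternatives, and among ratios of covered members that were at least 2-fold, 2 values changed direction. Without barcodes with an NK cell marker UMI, Zeb2 in Ly6c2/Il2rb over CD8 only went from 1.01 to -0.145, and the members at least 2-fold higher in that comparison went from 4 to 2. Zeb2 also fell under 2-fold there at a limit of 2500 UMIs (0.82) and under thinning (0.78), but reached 3.04 at a ribosomal share of 10% or more and 3.80 without each member's top barcode. With Cd4 barcodes taken whatever the other 5 genes, Runx2 in Cd4 only over CD8 only went from -1.65 to 0.164. The count of members at least 2-fold higher in Cd4 only was then 4 in place of 1, and of lower members 0 in place of 1. The same choice turned Id2 from -0.25 to 0.88 and Rora from -0.11 to 0.84 there, and under 20 UMIs Eomes from -1.4 to 1.0 and Zeb2 from -1.91 to 1.14. Rora in Cd4 only, and Prdm1 and Maf in Ly6c2/Il2rb, which lie near 0, changed sign under 5 alternatives each. In Cd4 only over CD8 only, thinning to 2500 UMIs gave 0 higher and 0 lower members. In that comparison 0 lower members were left with a T cell receptor required or at a ribosomal share of 10% or more. Lower members in Ly6c2/Il2rb went from 2 to 1 under thinning, without the CD8 requirement, with a T cell receptor and at a ribosomal share of 10% or more. The cause of these changes was not tested. In granzyme over CD8 only, Id2 stayed within 5.67-fold to 6.71-fold and Eomes within 33.1-fold to 63.1-fold, while Tox ran from 1.06-fold to 3.39-fold and passed 2-fold with a T cell receptor and at a ribosomal share of 10% or more. In granzyme over Ly6c2/Il2rb, Runx2 fell under 2-fold, to 1.86-fold at the lowest, under thinning and without the CD8 requirement. Rora and Maf there were lowest without the CD8 requirement, at 4.27-fold and 2.87-fold. Of the 112 counts, 101 stayed within 1.5 times their value. Prdm1 and Maf rested on 0 to 10 UMIs in CD8 only and Ly6c2/Il2rb.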

Other observations

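Cd4 barcodes with granzyme UMIs held both T-box factors. In the 11 such barcodes Tbx21 was at 2.6 (1.61 to 3.97) and Eomes at 2.23 (1.32 to 3.52), each found in 5. In the 57 Cd4 barcodes with Ly6c2 or Il2rb and no granzyme UMI, Tbx21 was at 0.675 (0.407 to 1.05) and Eomes at 0.107 (0.022 to 0.312), from 3 UMIs. Id2 was alike in these barcodes, at 3.96 (2.71 to 5.59) and 4.12 (3.41 to 4.95), and Tox at 3.22 (2.1 to 4.71) and 4.09 (3.37 to 4.91). Maf was at 1.24 and 1.53 and Rora at 1.48 and 2.2, with overlapping intervals.

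The 15 NK cell barcodes had a UMI of Ncr1 or Klrb1c and none of Cd3e, Cd3d or Cd3g. They give the members' levels in another cytotoxic cell type. Zeb2 at 11.7 (9.31 to 14.5) and Tbx21 at 7.46 (5.59 to 9.76) were found in 15 of 15. Id2 was at 10.6 (8.31 to 13.2) in 14 and Eomes at 2.54 (1.5 to 4.01) in 10. The Zeb2, Tbx21 and Id2 intervals lay above those of the CD8 granzyme group, the Eomes interval overlapped it, and Tox at 0.986 (0.396 to 2.03) lay below it. A ribosomal share under 10% was found in 33.3% of the NK cell and 9.26% of the granzyme barcodes. In the 10 granzyme barcodes under 10%, Zeb2 was at 11.7 too. The part of this share in the difference was not tested.

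Genes with the pattern nearest to each member over the 4 groups were ranked by the root mean square difference of centred log2 levels, with 0.5 UMI added. The nearest to Tbx21 were Tmem37 at 0.274, Gzmm at 0.353 and Dapk2 at 0.389. For Eomes they were Klrc1 at 0.516, Lrrk1 at 0.521 and Nkg7 at 0.747. Id2 was nearest to Rpa2 at 0.107, Gimap7 at 0.147 and Gna15 at 0.164. Zeb2 was nearest to Hip1 at 0.316, Ier3 at 0.336 and Smpdl3b at 0.343, and Prdm1 to Igkc at 0.51, S100a4 at 0.686 and Dusp5 at 0.836. Tox was nearest to Enpp1 at 0.0698, Hnrnpll at 0.124 and Nab2 at 0.132. Maf was nearest to Nrp1 at 0.59, Ptms at 0.602 and Nebl at 0.71, and Rora to Ptpn13 at 0.193, Litaf at 0.215 and Cish at 0.314. Runx2 was nearest to Myo1f at 0.177, Smim24 at 0.195 and Camk2n1 at 0.231. With 4 groups from 1 library these are descriptions of the levels and not of shared control.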
